A study of Oryza sativa with 80 samples.

Results

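The 200 rice leaf genes described here were those whose RNA was lowest after a heat shock, relative to unheated leaves, both in well-watered and in droughted plants. They were taken from 42189 genes in the raw count table, of which 12999 averaged at least 5 CPM (counts scaled to the library total) over the unheated leaves. For each of these 12999 genes, 4 heat values were computed, 1 for each soil water in each of the 2 labelled batches, as the log2 ratio of mean CPM (with 0.5 added) in heated over unheated leaves. Genes were ranked by the largest, that is the least negative, of their 4 values, and the 200 in which that value was most negative were kept. The heat contrast therefore chose the members, and every heat value below is a description with no test.

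A sudden rise in temperature turns plant cells towards making heat shock proteins, chaperones that hold and refold other proteins, while the transcripts of many other genes decline. How fast a transcript declines depends on whether its gene is still transcribed and on how quickly the existing RNA is degraded, so that short-lived RNAs can fall within minutes. In a leaf, the genes that decline include ones for growth, nutrient use and signalling, and nitrate reductase, which starts the assimilation of nitrate, is a textbook case of an enzyme whose RNA turns over quickly and varies over the day.

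The study asked how a drought that limits growth changes the response of rice (Oryza sativa) leaves to heat shock. W30 leaves came from pots kept at a soil water content of 3 g/g (water over dry soil) and were collected at 30 °C, and W40 leaves came from equal pots kept at 40 °C for 30 min before collection. D30 and D40 leaves came from pots kept at 1.5 g/g, without and with the same heat shock. Every sample was the third leaf, fully grown, collected at midday from seedlings grown in potting mix in a growth chamber. Well-watered leaves were taken at 10 days and droughted leaves at 12 days, so soil water cannot be told apart from leaf age, and the labels name no cultivar. The blade was cut into 7 segments of equal length, of which segments 2 (towards the base) to 6 (towards the tip) were sequenced, and each of the 4 replicates of a treatment pooled matched segments of 3 leaves. This gave 80 poly(A) RNA libraries from 16 leaf pools, and the pool was the replicate. The p-values of whole-leaf tests measure the spread between pools only. Those of segment tests measure only how segment differences vary from pool to pool, with the level of each pool set aside. The segment tests held no term for segment differences that vary between batches.

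Library totals lay between 53398019 and 128636996 counts, and totals per pool between 310494791 and 513401279. The 7 loci listed for light harvesting and the small subunit of Rubisco, which mark green leaf blade, all exceeded 1 CPM and summed to between 31624 and 83618 CPM in a pool, and the 1 shoot meristem locus was at 0 in all pools. The 3 loci listed as secondary wall cellulose synthases, which mark fibres and vessels, summed to 0.354 to 1.87 CPM in W30, 0.178 to 0.316 in W40, 0.621 to 21.4 in D30 and 1.10 to 15.8 in D40. Batch 1 held 7 pools and batch 2 held 9, and replicate 1 was the only W40 pool in batch 1. RNA came from whole segments, so fewer cells of a type and less RNA per cell cannot be told apart. The files pair the locus IDs with no gene names, and 0 of the IDs were in the gene table used for names, so the members appear here under their IDs, without sequences.

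Together the 200 members took a smaller share of the counts in heated than in unheated leaves. Their summed level was 9652, 11276, 10190 and 10160 CPM in W30 replicates 1 to 4, and 3635, 2678, 2773 and 2628 CPM in W40. In droughted leaves the sum was 10758, 10262, 11768 and 12073 CPM in D30 and 3787, 3600, 2099 and 2291 CPM in D40. All heated pools lay below all unheated pools, and among the heated pools those of batch 1 were the highest in each soil water. Per member, the mean level left after heat had a median of 27.3% of the unheated level in well-watered and 31.5% in droughted leaves, and it was below 25% for 82 and 62 members. The W40 means hold 1 pool of batch 1 and 3 of batch 2, against 2 of each in the other treatments. The 2 waters are therefore not compared on these means.

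**Figure D1:**
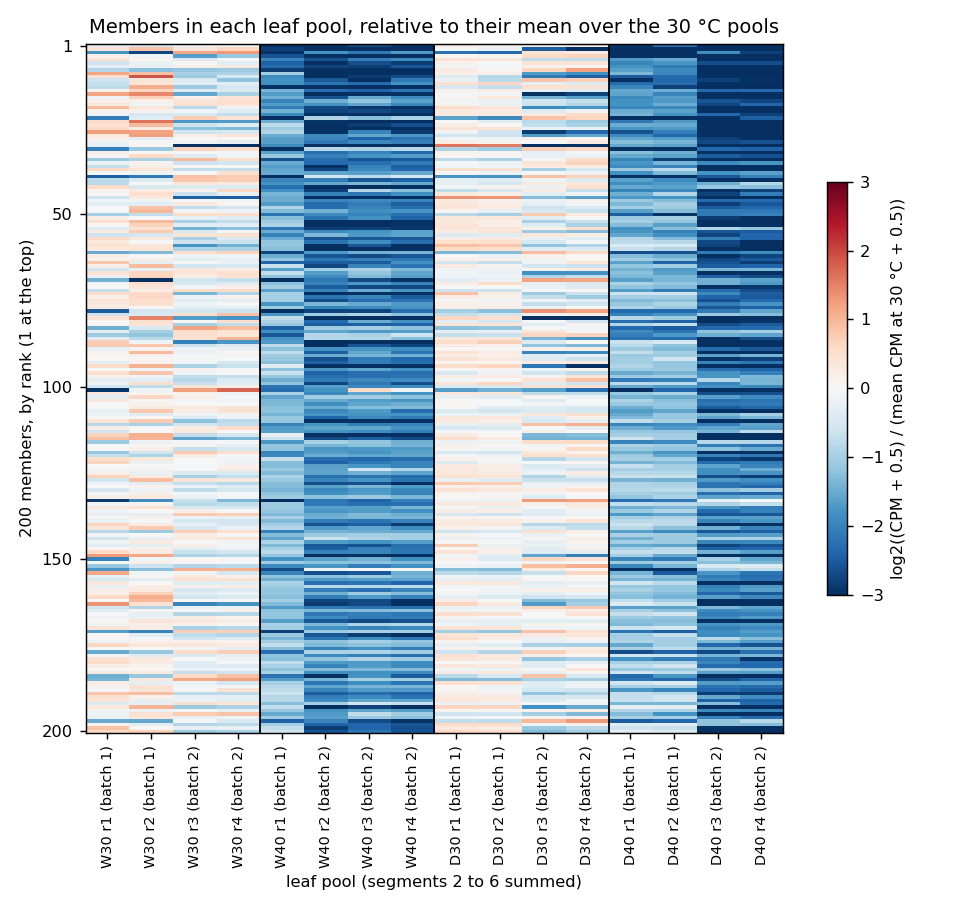
Level of each member (row, in rank order) in each leaf pool (column, grouped by treatment, with the batch in brackets), as the log2 ratio of its CPM + 0.5 to its mean over the 8 pools at 30 °C + 0.5; blue is lower and red is higher, with colours limited at 3 either way. The W40 and D40 columns are blue nearly throughout, palest in batch 1 (W40 replicate 1, D40 replicates 1 and 2), and some rows are also split by batch at 30 °C.

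The member ranked first, LOC_Os02g30110, had 10.9, 9.26, 11.8 and 12.0 CPM in the 4 W30 pools and 1.29, 1.33, 1.63 and 1.32 CPM in the W40 pools. In droughted leaves it had 15.9, 14.6, 15.3 and 16.1 CPM at 30 °C and 1.34, 2.33, 1.11 and 0.884 CPM at 40 °C. It varied most in D40, from 0.884 to 2.33 CPM, and heated and unheated pools did not overlap in either water. Its 4 heat values ran from -3.43 to -2.57. LOC_Os08g26710, ranked second, had 35.6, 49, 34.4 and 41.4 CPM in W30 and 3.42, 0.530, 0.883 and 0.601 CPM in W40. Its droughted pools had 25.7, 23.1, 4.46 and 1.44 CPM at 30 °C and 2.71, 2.60, 0.173 and 0.0714 CPM at 40 °C. Here the unheated droughted pools of batch 2 were already low, so that D30 and D40 overlapped, although within each batch the heated pools lay below the unheated ones.

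The members ranked 3 to 8 differed in level and in batch rather than in direction. LOC_Os01g08440 averaged 75.4 ± 72.5 CPM in W30 and 12.2 ± 7.66 in W40 (SD, n = 4 pools), a spread that came from the batches, since its W30 pools had 17.1 and 8.39 CPM in batch 1 and 133 and 143 in batch 2. LOC_Os09g37910 averaged 34.6 ± 18.9 CPM in W30 and 4.88 ± 1.96 in W40, and 64.8 ± 15.1 in D30 and 4.62 ± 0.806 in D40. LOC_Os02g12480 averaged 408 ± 96.7 CPM in W30 and 91.2 ± 18.7 in W40, and 380.2 ± 166 in D30 and 85.7 ± 51.2 in D40. All heated pools of these last 2 members lay below all of their unheated pools. LOC_Os04g26920 averaged 325 ± 60.5 CPM in W30 and 56.0 ± 15.9 in W40, and LOC_Os06g48560 averaged 57.6 ± 11 CPM in W30 and 9.04 ± 1.59 in W40. LOC_Os08g14940 averaged 54.1 ± 6.12 CPM in W30 and 8.96 ± 4.64 in W40, but in droughted leaves it went from 178 ± 67.5 to 19.3 ± 16.9 CPM, with a heat value of -5.39 in batch 2 against -1.92 in batch 1.

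Across the members, the median heat value was -1.37 in well-watered batch 1, -1.80 in well-watered batch 2, -1.24 in droughted batch 1 and -2.13 in droughted batch 2. The medians over all 12999 genes were -0.14, -0.20, -0.04 and -0.45. The largest of the 4 values ranged from -2.57 to -0.93, so 163 members had all 4 below -1 and 4 members had all 4 below -2. These values use CPM of the pool total, and heat raised the share taken by other transcripts. With TMM scaling, which sets most genes level, the all-gene medians became 0.05, 0.01, 0.04 and 0.01 and the member medians -1.17, -1.61, -1.15 and -1.69, and all 200 members stayed below 0 in all 4. The 166 members whose W40 pools all lay below the W30 pools compare with 19.4% of the 12999 genes, and the 168 for D40 and D30 with 20.4%. In the edgeR fit over all genes, 198 members were called lower in W40 and 199 in D40, against backgrounds of 18.7% and 17.8% of all genes tested, and nothing is read from these counts because the same contrast chose the members.

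At the edge of the rule, LOC_Os04g02850 (rank 199) and LOC_Os12g16524 (rank 200) were the last members. LOC_Os04g02850 averaged 22.3 CPM over the 30 °C pools and LOC_Os12g16524 averaged 83.1 CPM. LOC_Os10g07004 (rank 201, 11.6 CPM) and LOC_Os05g32970 (rank 202, 11.4 CPM) were the first genes left out. All of these had -0.93 as their largest heat value, in droughted batch 1, and LOC_Os05g32970 had -2.45, -3.38 and -3.36 as its other values. In most members the mildest value came from batch 1: it was droughted batch 1 for 109 members and well-watered batch 1 for 61. The most negative value was droughted batch 2 for 123 members and well-watered batch 2 for 50. W40 in batch 1 was a single pool, and with that pool left out the well-watered batch 1 value could not be computed. By the largest of the remaining values, 145 of the 200 were then found again.

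With CPM of the pool total, which soil water showed the more negative heat values depended on the batch, in the members and over all 12999 genes. The droughted minus well-watered heat value had a median of 0.11 over the members in batch 1 and of -0.31 in batch 2. Of the 200 members, 71 in batch 1 and 136 in batch 2 were more negative in droughted leaves, against 4959 and 9357 of the 12999 genes. The same medians over the 12999 genes were 0.09 and -0.26, close to those of the members. With TMM scaling the waters lay closer. The member medians were then -1.17 in well-watered and -1.15 in droughted leaves of batch 1, and -1.61 and -1.69 in batch 2. Those over the 12999 genes were 0.05 and 0.04 in batch 1 and 0.01 and 0.01 in batch 2. Most of the difference between waters thus depended on the scaling. LOC_Os02g45520 was the only member more negative in droughted leaves by over 1 in both batches, with differences of -1.08 and -2.44, and 0 members were so in the opposite direction; it is named after its values were seen. It had 42.1, 89.9, 53.6 and 54.6 CPM in W30 and 18.8, 14.8, 13.6 and 19.3 in W40. Its droughted pools had 98.7, 107, 57.7 and 51.3 CPM at 30 °C and 13.6, 13.7, 2.42 and 2.69 CPM at 40 °C. The heated droughted pools lay below the heated well-watered pools of the same batch in each batch.

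Of 159 loci entered by hand in 22 lists of leaf functions, 92 reached 5 CPM and 4 were members. Of these, 3 came from the 5 loci listed under nitrate reduction and transport, at ranks 11, 23 and 25. LOC_Os08g36480, ranked 25, had 180.4, 140.3, 50.6 and 47.6 CPM in W30 and 55.6, 4.38, 2.93 and 6.46 CPM in W40. It had 160.5, 163, 105 and 105 CPM in D30 and 35.3, 36.5, 1.92 and 1.53 CPM in D40. Heated pools of batch 2 stood far below the rest, all at 6.46 CPM or less, and the batch 1 W40 pool at 55.6 CPM lay above the lowest W30 pools. The heat values were -1.52 and -2.16 in batch 1 and -3.28 and -5.57 in batch 2, the last being the lowest droughted value of any member.

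LOC_Os02g53130, ranked 11, had 4.35, 9.13, 5.17 and 2.74 CPM in W30 and 1.64, 0.803, 0.370 and 1.21 CPM in W40. In droughted leaves it had 5.88, 3.77, 13.0 and 11.8 CPM at 30 °C and 0.401, 0.961, 0.567 and 0.450 CPM at 40 °C. No heated pool reached any unheated pool in either water. LOC_Os10g40600, ranked 23, had 13.3, 27.7, 2.21 and 2.31 CPM in W30 and 2.80, 0.697, 0.334 and 0.328 CPM in W40. In droughted leaves it had 8.48, 6.69, 4.73 and 3.74 CPM at 30 °C and 1.58, 2.32, 0.210 and 0.301 CPM at 40 °C. Batch 1 was higher than batch 2 in each treatment, so the batch 1 W40 pool passed the unheated pools of batch 2, while D30 and D40 did not overlap.

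The other 2 loci of the nitrate list were not close to the limit. LOC_Os08g36500, next to LOC_Os08g36480 in the ID order and at rank 4173, averaged 11.2 ± 3.14 CPM in W30 and 7.92 ± 3.23 in W40, and 5.59 ± 1.18 in D30 and 2.14 ± 1.74 in D40. LOC_Os01g25484, at rank 10419, averaged 702 ± 133 CPM in W30, 590.2 ± 431 in W40, 718 ± 161 in D30 and 471 ± 59.3 in D40. If the neighbouring loci are near-identical copies, the authors' counting could have split their reads, and their values are uncertain to that extent. The remaining list member, LOC_Os01g10040, was entered under brassinosteroid synthesis and signalling, a growth hormone pathway, and ranked 122. It averaged 5.80 ± 1.96 CPM in W30 and 1.06 ± 0.583 in W40, and 4.80 ± 0.707 in D30 and 1.26 ± 0.581 in D40. None of the listed loci for light harvesting, chlorophyll synthesis, plasma membrane aquaporins, jasmonate repressors or type A cytokinin response regulators was a member. In that order, 7 of 7, 8 of 8, 7 of 10, 6 of 12 and 6 of 9 loci reached 5 CPM and could have been members. Of the 12 listed expansins 0 reached 5 CPM, so the rule could not take any of them.

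**Figure D2:**
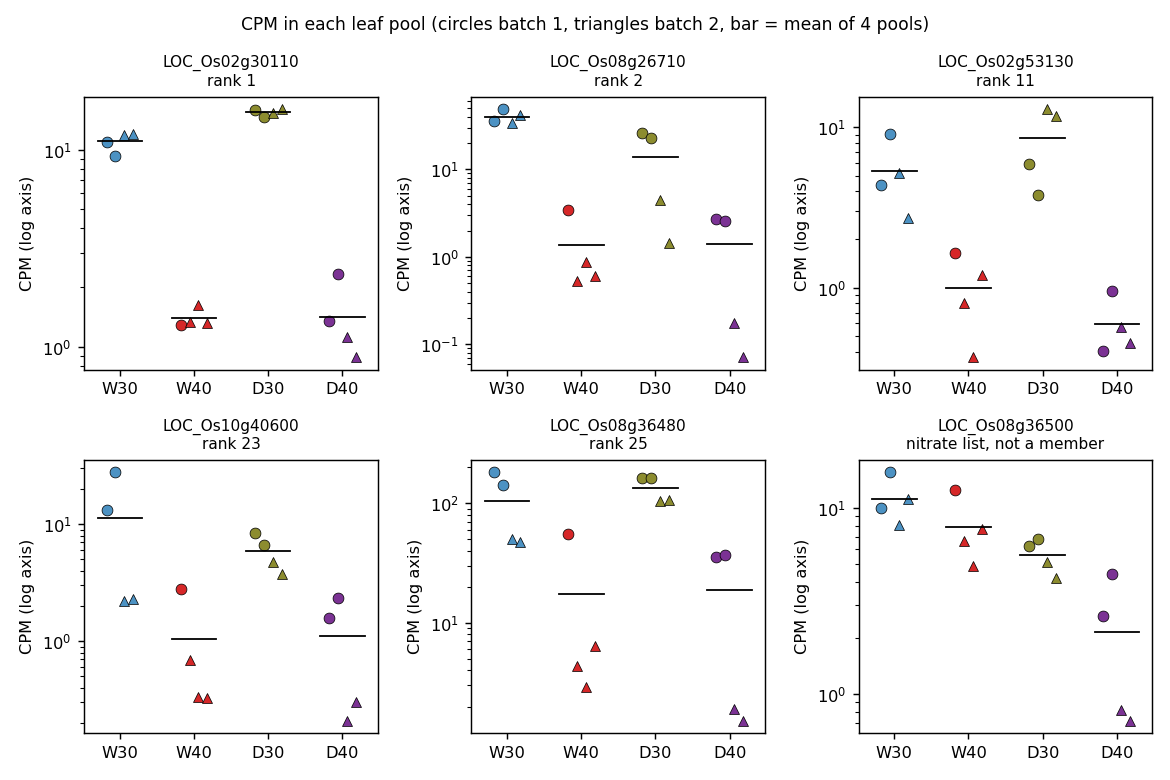
CPM (log axis) in each of the 16 leaf pools for the 2 members of lowest rank number, the 3 members on the nitrate list and, last, a nitrate list locus that is no member; circles are batch 1, triangles are batch 2 and bars are means of 4 pools. LOC_Os02g30110 lies between 9.26 and 16.1 CPM in all unheated pools, whereas LOC_Os08g36480 and LOC_Os10g40600 are split by batch within every treatment.

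The members were close to the genes with at least 5 CPM in median length and level, and the rule itself set that minimum level. The deposited FPKM values, which divide by gene length, implied a length in bases for each gene, and the median was 3676 over the members and 3720 over the genes with at least 5 CPM. Lengths spread more widely in the members, with quartiles of 1989 and 5526 against 2454 and 5356 for those genes. Median FPKM at 30 °C was 5.65 for the members and 6.03 for those genes, with members from 0.372 (LOC_Os09g10054) to 1641 (LOC_Os04g18090). LOC_Os04g18090 stood far above the rest, at 1071 ± 174 FPKM in W30, 439 ± 46.2 in W40, 2210 ± 193 in D30 and 475 ± 44.7 in D40. LOC_Os05g12630 followed at 279.8 FPKM and LOC_Os11g05050 at 209.6 FPKM, as means over the unheated pools. In CPM, LOC_Os05g12630 had 131, 127, 365 and 272 in W30 and 67.2, 93.6, 57.3 and 47.8 in W40, and LOC_Os11g05050 had 491, 1007, 654 and 789.6 in W30 and 245, 149, 176 and 116 in W40, without overlap in either.

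By the chromosome number in their IDs, the members came from all 12 chromosomes. Chromosome 1 held 24, chromosome 4 held 23, and chromosomes 2 and 3 held 22 each, while chromosomes 6 and 7 held 9 each. The shares on chromosomes 1, 2 and 3 were 12%, 11% and 11%, against 14.3%, 12.2% and 14.5% of the genes with at least 5 CPM. Those on chromosomes 6 and 7 were 4.5% each, against 7.85% and 7.66%. The share on chromosome 4 was 11.5% against 8.32% of the genes with at least 5 CPM, that on chromosome 10 was 7.5% against 4.86%, and that on chromosome 11 was 7% against 4.59%. In 8 pairs, IDs of consecutive members differed by 50 or less, and 15 members took part. The chain LOC_Os05g41540, LOC_Os05g41580 and LOC_Os05g41610 was the only run of 3.

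Drought at 30 °C moved few members, in both directions. The rule did not use the drought contrast, but the pools compared here also entered the rule that chose the members. In D30 against W30, 14 members (7%) rose and 15 (7.5%) fell (edgeR quasi-likelihood test with batch as a term, Benjamini-Hochberg adjusted p under 0.05 over all 25103 genes tested). The background was 5.27% rising and 5.01% falling over all genes tested, and 5.53% and 4.64% over the 12999 genes with at least 5 CPM, so the shares were close to the background. The median log2 change was -0.05 over the members and 0.02 over the 12999 genes. With batch 1 alone 11 rose and 12 fell (5.5% and 6%, against 4.23% and 3.79% of the genes with at least 5 CPM in that fit), and with batch 2 alone 35 rose and 53 fell (17.5% and 26.5%, against 20.7% and 18.8%). The number rising was 9 without W30 replicate 1, 6 without W30 replicate 3, 7 without W30 replicate 4, 7 without D30 replicate 3 and 6 without D30 replicate 4. The number falling was 27 without W30 replicate 1, 8 without W30 replicate 4, 9 without D30 replicate 2 and 7 without D30 replicate 4. These counts with 1 pool left out are given without the share of all genes in the same fit.

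At 40 °C, 22 members (11%) were higher and 16 (8%) lower in D40 than in W40. These pools, too, entered the rule that chose the members. The background was 8.37% higher and 5.76% lower over all genes tested, and 6.92% and 5.79% over the 12999 genes. The same 7 members were higher and the same 5 were lower at both temperatures, and 0 were called in opposite directions. The share of all genes called at both temperatures was not computed, so this overlap is not read as a trait of the members. In batch 1 W40 was 1 pool, so calls from batch 1 alone are not given. With batch 2 alone 42 were higher and 95 lower (21% and 47.5%, against 25% and 28.8% of the genes with at least 5 CPM in that fit). Counts with 1 pool left out are again given without the share of all genes in the same fit. The number higher was 13 without W40 replicate 2, 12 without replicate 3, 10 without replicate 4 and 11 without D40 replicate 4. The number lower was 26 without W40 replicate 1, 9 without W40 replicate 3, 9 without W40 replicate 4, 31 without D40 replicate 1, 6 without D40 replicate 3 and 6 without D40 replicate 4.

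LOC_Os10g33190 had the smallest adjusted p of the members that rose at 30 °C. It had 4.89, 10.1, 23.4 and 14.6 CPM in W30 and 34.0, 32.9, 93.2 and 90.3 CPM in D30. In heated leaves it had 3.30, 8.09, 6.76 and 8.73 CPM in W40 and 7.38, 8.18, 30.9 and 36.7 CPM in D40. Every D30 pool lay above every W30 pool, while W40 and D40 overlapped through batch 1. The log2 change was 2.18 (SE 0.27, edgeR adjusted p = 0.000397) at 30 °C and 1.83 (SE 0.27, edgeR adjusted p = 0.00183) at 40 °C, and within batches at 30 °C it was 2.17 and 2.18. LOC_Os11g40610 had 12.1, 15.7, 10.1 and 12.1 CPM in W30 and 23.8, 22.0, 21.1 and 23.4 in D30, with no overlap, a log2 change of 0.83 (SE 0.12, edgeR adjusted p = 0.000998). LOC_Os04g33260 had 5.99, 1.98, 2.05 and 1.75 CPM in W40 and 9.47, 10.0, 5.16 and 4.90 in D40, where W40 replicate 1 passed the D40 pools of batch 2, a log2 change of 1.22 (SE 0.18, edgeR adjusted p = 0.00183).

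Among members that fell, LOC_Os08g38990 had 35.1, 33.8, 9.33 and 10.1 CPM in W30 and 13.4, 9.37, 1.57 and 2.35 CPM in D30. In heated leaves it had 7.46, 1.39, 3.22 and 1.53 CPM in W40 and 1.92, 3.11, 0.405 and 0.311 CPM in D40. The treatments overlapped across batches at both temperatures, and within each batch the droughted pools at 30 °C were the lower ones. The log2 change was -1.99 (SE 0.27, edgeR adjusted p = 0.000634) at 30 °C and -2.10 (SE 0.28, edgeR adjusted p = 0.00116) at 40 °C. LOC_Os01g44050 had 17.9, 14.5, 14.9 and 13.8 CPM in W30 and 9.54, 8.96, 5.67 and 5.28 in D30, with no overlap, a log2 change of -1.15 (SE 0.18, edgeR adjusted p = 0.00182). LOC_Os09g10054 had 2.17, 1.48, 2.07 and 1.72 CPM in W40 and 1.49, 0.958, 0.195 and 0.184 in D40, a log2 change of -2.12 (SE 0.39, edgeR adjusted p = 0.00552), with -0.91 in batch 1 and -3.06 in batch 2.

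Members at the top of the heat ranking could also differ with drought. LOC_Os08g26710 (rank 2) fell in D30 by 2.63 on the log2 scale, but the call was lost when any 1 of W30 replicates 3 and 4 and D30 replicates 2, 3 and 4 was left out, with adjusted p up to 0.0765 in edgeR. LOC_Os09g37910 (rank 4) rose in D30 by a log2 change of 1.01 and LOC_Os08g14940 (rank 8) by 1.75, and leaving out single pools ended these calls too, in 5 and 6 of 8 cases. Members on the nitrate list had log2 changes of 0.73 (SE 0.54) for LOC_Os08g36480, 0.69 (SE 0.50) for LOC_Os02g53130 and -0.19 (SE 0.43) for LOC_Os10g40600 at 30 °C, and none passed the test at either temperature. LOC_Os08g36500, the nitrate list locus that is no member, fell at both, by 1.05 and 2.35 on the log2 scale. The summed secondary wall markers, given above, were higher in droughted leaves at 40 °C without overlap, and their part in these differences was not tested.

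**Figure D3:**
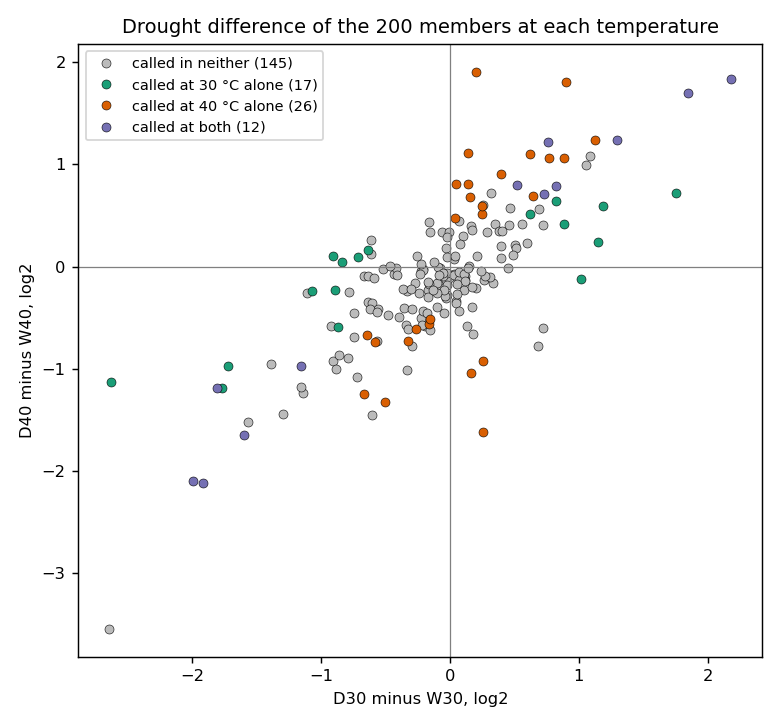
Drought difference of each of the 200 members (points) at 30 °C (x axis, D30 minus W30, log2) and 40 °C (y axis, D40 minus W40, log2), coloured by whether edgeR called it at each temperature. Most members lie near 0 on both axes, and the 12 called at both temperatures lie in the lower left (5) and upper right (7) corners.

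Along the unheated blade, members differed between base and tip in both directions. In W30, 36 members (18%) were higher and 50 (25%) lower in segment 6 than in segment 2 (edgeR, leaf pool as a block, adjusted over 23888 genes). The background was 19.9% higher and 15.9% lower over all genes tested, and 21.2% and 18.2% over the 12999 genes. In D30, 36 members (18%) were higher and 34 (17%) lower, with a background of 12% and 11.2%, or 16.2% and 10.3% over the 12999 genes. These shares differed between the batches. In W30, batch 1 alone gave 61 members (30.5%) higher and 33 (16.5%) lower, against 19% and 16.3% of the genes with at least 5 CPM in the same fit, and batch 2 alone gave 25 (12.5%) and 73 (36.5%), against 15.9% and 20.4%, so the direction in which the members exceeded the background turned. In D30, batch 1 alone gave 41 (20.5%) and 46 (23%), against 12.1% and 11.2%, and batch 2 alone gave 39 (19.5%) and 36 (18%), against 20.9% and 9.5%. With no replicate block, 6 members were higher and 15 lower in W30 and 3 and 13 in D30, against 6.69%, 4.3%, 1.89% and 1.58% of these genes. The same 20 members were higher and the same 26 lower in both waters, and 1 was called in opposite directions. This overlap, too, was not computed over all genes.

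The steepest grade belonged to LOC_Os08g26230, but in 1 batch. In W30 it had 0.108, 2.53, 0 and 0.772 CPM in segment 2 and 0.512, 4.79, 48.4 and 67.7 CPM in segment 6. The batch 2 pools alone reached such levels, and in D30 segment 6 it had 1.51, 1.95, 1.75 and 0.258 CPM. The log2 difference between segments in W30 was 5.07 (SE 0.61, edgeR adjusted p = 8.38e-10), with 1.09 in batch 1 and 7.23 in batch 2. LOC_Os04g26920 (rank 6) had 222, 264, 191 and 169 CPM in segment 2 and 339.5, 435, 815 and 579 CPM in segment 6 of W30. All tip values passed all base values, a log2 difference of 1.26 (SE 0.16, edgeR adjusted p = 8.54e-09) in W30 and 0.67 (SE 0.16, edgeR adjusted p = 0.00103) in D30.

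In the other direction, LOC_Os10g40600 of the nitrate list was higher at the base. In W30 it had 24.7, 48.5, 5.04 and 5.34 CPM in segment 2 and 7.32, 16, 1.21 and 1.02 CPM in segment 6, and in D30 it had 13.3, 11.2, 8.17 and 7.88 CPM in segment 2 and 7.60, 5.01, 2.62 and 2.06 CPM in segment 6. Each pool had less at the tip than at the base. The log2 difference was -1.94 (SE 0.18, edgeR adjusted p = 9.97e-13) in W30 and -1.35 (SE 0.18, edgeR adjusted p = 2.87e-08) in D30. The other nitrate list members differed from it: LOC_Os08g36480 was lower at the tip in W30 (log2 difference -0.70, SE 0.19) and did not pass in D30 (0.13, SE 0.19), and LOC_Os02g53130 was higher at the tip in D30 (1.17, SE 0.33), a call lost without D30 replicate 1 or 2. Of the 5 loci on that list, 3 were lower at the tip in W30, and 1 was higher and 1 lower in D30.

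LOC_Os05g24140 had 14.0, 10.7, 9.75 and 10.9 CPM in segment 2 and 5.57, 3.29, 2.35 and 1.64 CPM in segment 6 of W30, with no overlap. Its log2 difference was -2.01 (SE 0.23, edgeR adjusted p = 7.74e-10) in W30 and -1.56 (SE 0.21, edgeR adjusted p = 7.81e-08) in D30. In D30, LOC_Os08g39694 had 44.8, 34.1, 27.5 and 32.7 CPM in segment 2 and 17.7, 17.1, 10.8 and 10.6 CPM in segment 6, a log2 difference of -1.32 (SE 0.13, edgeR adjusted p = 3.03e-11). LOC_Os07g12900 had 7.64, 6.99, 2.96 and 4.37 CPM in D30 segment 2 and 3.79, 3.32, 0.881 and 0.852 CPM in segment 6, lower in each pool. LOC_Os05g37930 had 4.12, 3.70, 32.1 and 25.6 CPM in D30 segment 2 and 10.3, 8.34, 48.1 and 48.7 CPM in segment 6. LOC_Os02g49840 had 10.5, 11.7, 11.4 and 13.1 CPM in D30 segment 2 and 19.5, 17.2, 18.9 and 20.4 CPM in segment 6. Both were higher at the tip in each pool, by 0.99 (SE 0.14) and 0.71 (SE 0.11) on the log2 scale, although LOC_Os05g37930 was several times lower in batch 1 than in batch 2 at either end.

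**Figure D4:**
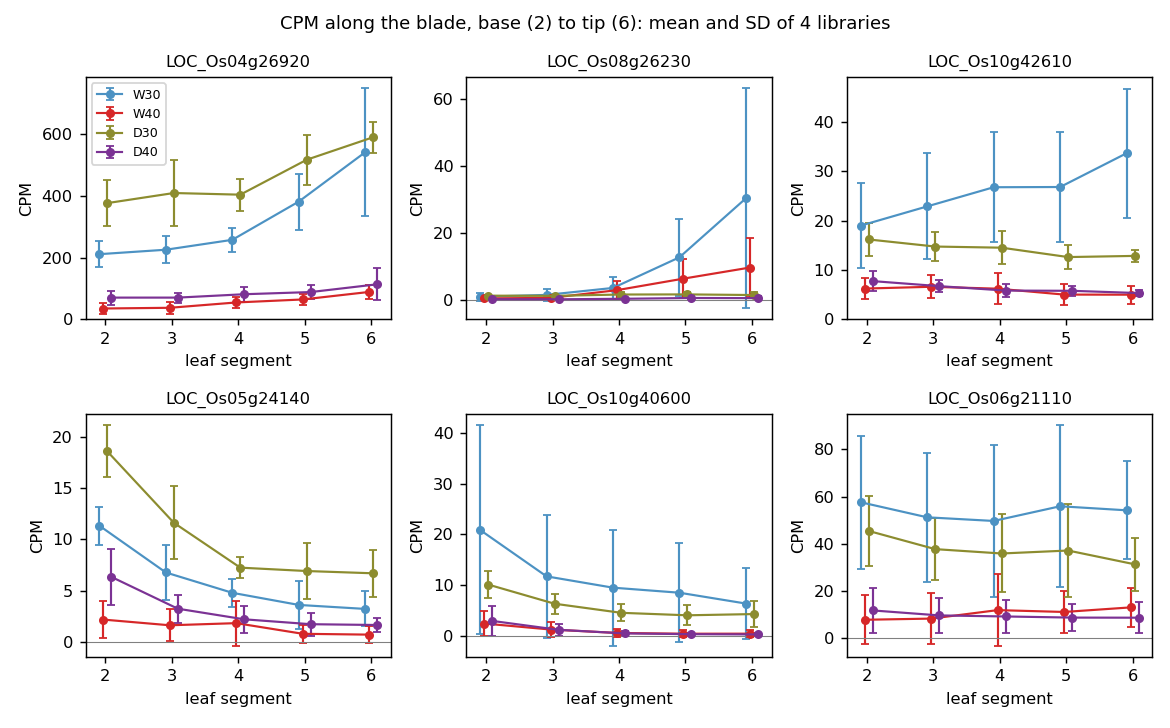
CPM along the blade, from segment 2 (base) to segment 6 (tip), for 6 members in the 4 treatments (points are means of 4 libraries, bars are SD). The top row shows members higher towards the tip in W30 and the lower row members higher towards the base or even along the blade; W40 and D40 lie below W30 and D30 in most segments, and LOC_Os08g26230 exceeds 5 CPM in well-watered leaves alone.

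Members were lower after heat along the whole blade. In every segment the CPM ratio of heated to unheated leaves was below 1 for all 200 members in both waters. The median log2 change in segments 2 to 6 was -1.79, -1.77, -1.68, -1.71 and -1.75 in well-watered leaves and -1.48, -1.59, -1.63, -1.65 and -1.61 in droughted leaves. The W40 means again hold 1 pool of batch 1 and 3 of batch 2, so the 2 waters are not compared on them. The medians over the 12999 genes lay between -0.24 and -0.17. The weakest change of a member was -0.26, in segment 4 of well-watered leaves for LOC_Os08g26230. The whole-leaf values chose the members, so these levels are a description.

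**Figure D5:**
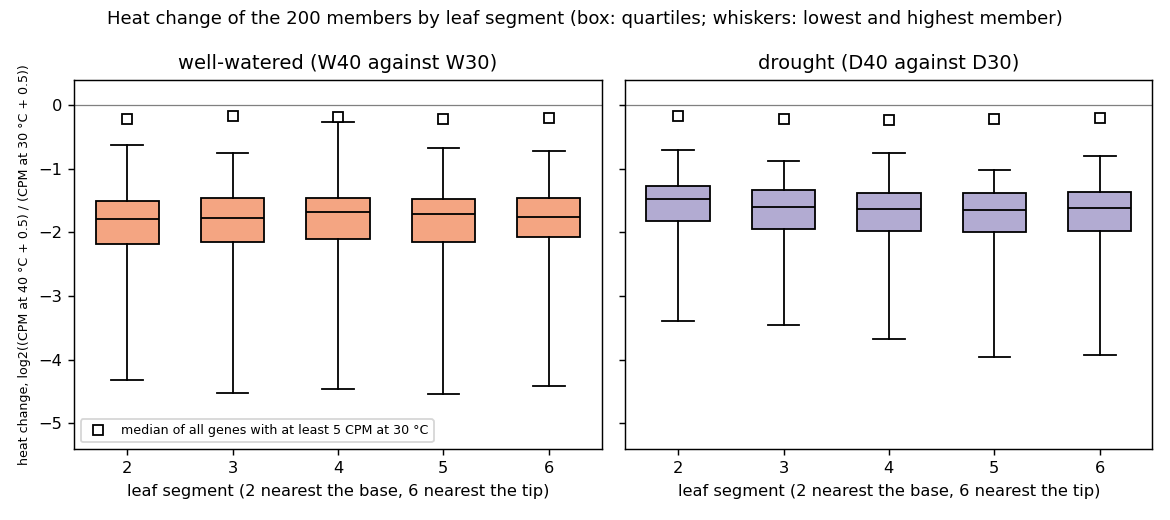
Heat change of the 200 members in each leaf segment, as the log2 ratio of mean CPM + 0.5 at 40 °C over 30 °C, in well-watered (left) and droughted (right) leaves; boxes are quartiles, whiskers reach the lowest and highest member and open squares are medians of all genes with at least 5 CPM. Every member lies below 0 in every segment, and member medians stay between -1.79 and -1.48. The W40 means hold 1 pool of batch 1 and 3 of batch 2, so the panels are not compared with each other.

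Whether the heat change itself differed between tip and base was tested, since the rule used whole-leaf sums and not their spread over segments. In well-watered leaves the heat change was less negative at the tip for 7 members (3.5%) and more negative for 3 (1.5%), with a background of 1.69% and 2.56% over all genes tested and 2.09% and 3.52% over the 12999 genes (edgeR). In droughted leaves 0 were less negative and 2 (1%) more negative, against 0.163% and 0.167% of all genes tested and 0.192% of the 12999 genes in each direction. At an unadjusted p under 0.05 in edgeR, 28 members (14%) were less and 19 (9.5%) more negative in well-watered leaves, against 9.02% and 12.1% of the 12999 genes, and 6 (3%) and 18 (9%) in droughted leaves, against 5.01% and 4.13%. In droughted leaves batch 1 alone gave 2 members (1%) less and 25 (12.5%) more negative, against 2.09% and 2.32%, and batch 2 alone gave 2 and 1, against 0.223% and 0.639%. In well-watered leaves batch 2 alone gave 21 and 3, against 4.21% and 4.44%. W40 was 1 pool in batch 1, so the well-watered calls from batch 1 alone are not given. With no replicate block, edgeR called 0 of all genes tested in either water. In well-watered leaves the count of less negative members was 15 without W40 replicate 1, 3 without W40 replicate 2, 0 without W40 replicate 3 and 2 without W40 replicate 4, and the count of more negative ones was 1 without W30 replicate 2, 5 without W30 replicate 4, 11 without W40 replicate 1 and 1 without W40 replicate 3. In droughted leaves the count of more negative members was 0 without D30 replicate 1, D40 replicate 1 or D40 replicate 2. It was 1 without D30 replicate 2 or 4 and 4 without D40 replicate 4, and the count of less negative ones was 1 without D40 replicate 4. These counts with 1 pool left out are given without the share of all genes in the same fit.

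LOC_Os10g42610 kept its call whichever pool was left out. In W30 it had 7.80, 28.8, 20.1 and 19.3 CPM in segment 2 and 17.7, 44.4, 44.3 and 28.3 CPM in segment 6, higher at the tip in each pool. In W40 it had 9.05, 5.69, 6.16 and 4.11 CPM in segment 2 and 7.71, 4.46, 4.16 and 3.73 CPM in segment 6, lower at the tip in each pool. The heat change was more negative at the tip by a log2 difference of -1.24 (SE 0.21, edgeR adjusted p = 7.26e-05). It was -1.11 in batch 1, where W40 was 1 pool, and -1.21 in batch 2. LOC_Os04g40630 had a difference of -1.27 (SE 0.31, edgeR adjusted p = 0.00900), lost without W30 replicate 1 or 2 or W40 replicate 3. In the other direction, LOC_Os06g21110 differed by 1.22 (SE 0.29, edgeR adjusted p = 0.00768), lost without W40 replicate 3, and LOC_Os02g44270 by 0.62 (SE 0.15, edgeR adjusted p = 0.00920), lost without W40 replicate 3 or 4.

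The calls in droughted leaves were LOC_Os10g40600 and LOC_Os04g18090. LOC_Os10g40600 had 4.01, 6.69, 0.488 and 0.728 CPM in segment 2 of D40 and 0.424, 0.596, 0.0640 and 0.160 CPM in segment 6, so that less was left at the tip in each pool. The heat change differed by -1.80 on the log2 scale (SE 0.40, edgeR adjusted p = 0.0177), with -2.31 in batch 1 and -0.71 in batch 2, and the call was lost without D30 replicate 1 or D40 replicate 1 or 2. LOC_Os04g18090 had 895, 884, 2323 and 2219 CPM in segment 2 and 1540, 1526, 3120 and 3786 CPM in segment 6 of D30. In D40 it had 359, 449, 356 and 470.4 CPM in segment 2 and 299, 269.8, 391 and 530.1 CPM in segment 6, so the rise along the unheated blade was not seen after heat in all pools. The difference was -0.78 (SE 0.18, edgeR adjusted p = 0.0299), with -1.19 in batch 1 and -0.50 in batch 2, and it was lost without D30 replicate 1, 2 or 4 or D40 replicate 1 or 2.

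At 30 °C, batch means over 2-fold apart were more frequent in the members than over the genes with at least 5 CPM, which include the members. The unheated pools compared here also entered the rule that chose the members. The batch 1 mean was over 2-fold above that of batch 2 for 32 members (16%, against 4.71% of the genes with at least 5 CPM) and over 2-fold below it for 22 (11%, against 5.46%). All 4 unheated pools of batch 1 lay above all 4 of batch 2 for 60 members (30%, against a background of 19.9%) and below them for 28 (14%, against 15%). Such complete splits thus exceeded the background only where batch 1 was higher. The widest split in each direction, named after the values were seen, was in LOC_Os03g03724 (higher in batch 1) and LOC_Os01g08440 (higher in batch 2). LOC_Os03g03724 had 38.1, 48.7, 1.03 and 1.65 CPM in W30 and 144, 138, 1.15 and 1.42 CPM in D30, a log2 ratio of batch 1 over batch 2 of 5.68. LOC_Os01g08440 had 12.3, 11.2, 78.5 and 70.8 CPM in D30 and a log2 ratio of -3.07 over all unheated pools. These splits were not tested, and the labels do not say what the batches differed in.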

How the data were processed

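Per the file headers, the deposited tables held raw counts per gene, estimated counts after the authors' batch correction (rounded here to whole numbers), and FPKM values that the authors derived after that correction. Tools named in the submitters' processing notes were Picard 3.1.0, featureCounts 2.0.6 and HISAT2 2.2.1. The genome build, the form of the correction, and whether introns entered the gene lengths are not given in the sources used here. CPM of the deposited batch-corrected counts divided by FPKM gave, up to a fixed factor, a length per gene. It was constant to within 2% for 98.6% of the values tested, which were those above a minimum count.

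Raw counts of segments 2 to 6 were summed per pool, and CPM is the count over the total. Counts were tested in R 4.3.3 with edgeR 4.0.16 (TMM, filterByExpr with a minimum count of 10 and total of 15, quasi-likelihood F tests, Benjamini-Hochberg adjustment, threshold 0.05). Whole-leaf fits used treatment and batch over the 16 pools (25103 genes). Segment fits took each combination of segment and treatment over the 80 libraries, blocked by pool (23888 genes), without a separate dispersion step. All 200 members passed both filters. Standard errors were derived as the absolute log2 change over the square root of F and are approximate. The procedure was tested on simulated counts.

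Within a treatment, the labels' protocols make segments with 1 replicate number parts of 1 pool, and their deviations had a median correlation of 0.65, against -0.46 between pools. The members, lists and tests were chosen with earlier results of these data known. The 22 lists of 159 loci were entered by hand from general knowledge, and no table used here checks them. Named genes were the members ranked 1 to 8, the 2 on each side of the limit, the 3 with the highest FPKM, the members on a list, and in each tested contrast the 2 called higher and 2 called lower with the smallest adjusted p. Alternatives were DESeq2 1.42.0, limma 3.58.1 on log2(FPKM + 0.1), batch-corrected counts, other scaling, filters, blocks and each pool left out.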

Additional observations from a re-analysis of the deposited data

Results flagged for a closer look

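In 16 of 140 groups of 4 pools (35 named genes in 4 treatments), 1 pool lay far from the other 3, where chance flags about 1 group in 20. In 12 of the 16 that pool was W40 replicate 1, the only W40 pool of batch 1, and it was the highest. Its level was 3.42 CPM for LOC_Os08g26710 (the next pool had 0.883), 7.82 for LOC_Os09g37910 (4.07), 13.1 for LOC_Os04g02850 (3.86) and 54.9 for LOC_Os12g16524 (18.0). It was 5.18 CPM for LOC_Os10g07004, the gene just outside the limit (1.72), 2.80 for LOC_Os10g40600 (0.697), 55.6 for LOC_Os08g36480 (6.46) and 6.53 for LOC_Os01g44050 (4.53). It was 5.99 CPM for LOC_Os04g33260 (2.05), 3.5 for LOC_Os05g24140 (0.950), 3.18 for LOC_Os07g12900 (0.653) and 26.0 for LOC_Os06g21110 (6.87).

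The others were a high W40 replicate 3 for LOC_Os02g30110 (1.63 CPM, next 1.33), a high W40 replicate 2 for LOC_Os04g18090 (399 CPM, next 339), a high W30 replicate 2 for LOC_Os09g10054 (17.2 CPM, next 9.20) and a high D40 replicate 4 for LOC_Os05g37930 (3.60 CPM, next 1.85).

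In 8 cases the heat change of a named member differed between tip and base by the test of that difference in edgeR. In well-watered leaves the log2 difference, segment 6 minus segment 2, was 0.81 for LOC_Os01g44050, -1.24 for LOC_Os10g42610, 0.62 for LOC_Os02g44270, -1.27 for LOC_Os04g40630, 1.22 for LOC_Os06g21110 and 1.17 for LOC_Os08g14940. In droughted leaves it was -1.80 for LOC_Os10g40600 and -0.78 for LOC_Os04g18090. Among these, LOC_Os10g42610 alone kept its call with every pool left out in turn.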

How the results depend on the processing

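Of 183 alternative counts, 111 stayed within 1.5 times the reported one and 72 did not, and the cause was not tested. Member counts in this section are given without the share of all genes called in the same fit. They show how far the counts moved, and not whether members differed from other genes. Of the 200 members, 125 were found again with batch-corrected counts, 125 with ranking by the mean of the 4 values and 145 to 198 with 1 pool left out. The 145 came without W40 replicate 1, where the ranking lacked the well-watered batch 1 value. Members rising and falling with drought at 30 °C numbered 22 and 31 in DESeq2, 24 and 24 in limma on log2 FPKM, and 23 and 26 with batch-corrected counts; those lower at 40 °C numbered 32, 25 and 27. Replicate numbers did not pair pools across treatments (median correlation -0.17 after treatment and batch), and with the replicate block in place of batch the counts were 5 and 5 at 30 °C and 13 and 7 at 40 °C. Batch 2 alone gave 35 and 53 at 30 °C and 42 and 95 at 40 °C. Leaving out 1 pool gave 6 to 12 rising and 7 to 27 falling at 30 °C, and 10 to 33 and 6 to 31 at 40 °C. Between segments, no replicate block gave 6 higher and 15 lower at the tip in W30, 3 and 13 in D30, and 0 and 0 for the heat change in well-watered leaves and 0 lower in droughted leaves. Batch 1 alone gave 61 and 33 in W30. For the heat change, batch 1 alone gave 0 less and 9 more negative at the tip in well-watered and 2 and 25 in droughted leaves; batch 2 alone gave 21 less negative in well-watered and 2 and 1 in droughted leaves; batch-corrected counts gave 3 less negative in well-watered leaves. Leaving out 1 pool gave 25 to 35 higher and 38 to 54 lower in W30, 27 to 31 and 29 to 33 in D30, 0 to 15 and 1 to 11 for the heat change in well-watered leaves, and 0 to 1 and 0 to 4 in droughted leaves. Members near 1 CPM in heated pools have heat values that the pseudocount pulls towards 0.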
